A study of Homo sapiens with 6 samples.

Results

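Aminoacyl-tRNA synthetases are the enzymes that join each amino acid to its matching transfer RNA (tRNA), the step that gives the ribosome its building blocks. Animal cells use 1 set of these enzymes in the cytosol and another, encoded by separate nuclear genes whose names mostly end in 2, inside mitochondria. Several cytosolic enzymes sit together in the multi-synthetase complex, held by the scaffold proteins AIMP1, AIMP2 and EEF1E1. Many cytosolic synthetase genes are known targets of ATF4, the transcription factor made when amino acids run short and the kinase GCN2 phosphorylates eIF2. The genes described here are 35 named synthetase genes, 19 cytosolic and 16 mitochondrial, chosen by their GENCODE release 29 names from a list, and not every synthetase of the cell is among them. All 35 were found among the 30099 genes of the deposited tables. Current gene tables write the cytosolic names with a final 1 (AARS as AARS1).

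RNA sequencing was done on 6 libraries from the human breast cancer line MDA-MB-231, a widely used triple-negative line. Of these, 3 came from parental cells and 3 from cells named Pep2-E3. Parental cells are labelled as the control and the others carry Pep-E3 as their genotype on the same line. The labels do not explain the name, and give no number of clones and no added agent. Since the labels do not state that replicates were grown as separate cultures, the p-values below reflect library-to-library spread that may be technical. Levels are FPKM, fragments per kilobase of exon scaled to the library's counted fragments. The length is that of all annotated exons of a gene together, so comparisons of level between genes also depend on the annotation.

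The libraries held 17154511 to 18206694 fragments, and the synthetase genes other than SARS2 had between 123 and 9948 fragments per library. Markers listed for MDA-MB-231 were present, with 8 of 9 at a mean of at least 0.5 FPKM and summed levels of 1087 to 1095 FPKM in parental and 1018 to 1067 FPKM in Pep2-E3 libraries. Among luminal breast markers ESR1, PGR, FOXA1 and CDH1 stayed under that mean. The summed level of the 10 luminal markers was 178.5 to 192.2 FPKM in parental and 195.6 to 217.7 FPKM in Pep2-E3 libraries. The 6 tested ones were split in the limma test described below. KRT8, KRT18 and GATA3 were higher in Pep2-E3, ERBB3 was lower (adjusted p = 0.00493), and KRT19 and EPCAM did not pass. The 4 leukocyte markers with values summed to between 0.0740 and 0.420 FPKM in any library, and 1 of 8 fibroblast and endothelial markers reached the mean of 0.5 FPKM. Across all tested genes, each library's deviation from its group mean was correlated with GC content. The r was 0.489, -0.204 and -0.417 in Pep2-E3 replicates 1, 2 and 3 and -0.0885 to 0.0932 in the parental libraries. Deviations within a group cancel out, so the positive r of replicate 1 is balanced by the negative ones. The values describe a GC trend among the Pep2-E3 libraries. What part GC content or the luminal markers have in the differences below was not tested, and values after a correction for GC content and exon length are given where they change a call.

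Some promoters of the cytosolic synthetase genes hold a short sequence, shown here because it is the core of the element that ATF4 and its C/EBP partners bind. The letters TGATGNAA were searched on both strands in RefSeq promoter windows of 300 bases (250 before and 50 after the start, GRCh38.p14), and 3.62% of the 35116 windows in the table hold them. Of the 15 cytosolic synthetase genes with a window, 6 hold them, and all 6 carry the same 8 letters, TGATGCAA or its reverse complement TTGCATCA, which occur in 0.866% of all windows. Of the 14 mitochondrial genes with a window, YARS2 alone has a match, with other letters at the free position. LARS, VARS and YARS and the mitochondrial AARS2 and VARS2 were among those with no matched entry. The 6 stretches follow, each 5′ to 3′ on the gene's own strand, with the matched letters in capitals.
AARS: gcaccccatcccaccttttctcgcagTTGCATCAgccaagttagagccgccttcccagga
TARS: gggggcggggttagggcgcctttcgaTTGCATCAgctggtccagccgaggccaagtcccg
IARS: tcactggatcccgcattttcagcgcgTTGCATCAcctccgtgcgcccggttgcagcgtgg
CARS: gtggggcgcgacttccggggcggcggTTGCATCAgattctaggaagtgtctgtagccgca
NARS: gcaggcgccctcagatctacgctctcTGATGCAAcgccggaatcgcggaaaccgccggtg
MARS: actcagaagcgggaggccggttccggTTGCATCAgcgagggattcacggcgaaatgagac
These stretches lie at chr16:70289660-70289719 (AARS, minus strand), chr5:33440941-33441000 (TARS, plus strand), chr9:92293677-92293736 (IARS, minus strand), chr11:3057392-3057451 (CARS, minus strand), chr18:57621789-57621848 (NARS, minus strand) and chr12:57488038-57488097 (MARS, plus strand). In 5 of the 6 the match lies within 20 bases of the annotated start, and in AARS it begins 187 bases upstream. A match is a description of the letters and not evidence that a factor binds there in these cells.

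Cytosolic synthetase genes mostly had higher FPKM than mitochondrial ones. The median over members of the mean level in the 6 libraries was 46.8 FPKM for the 19 cytosolic genes and 7.03 FPKM for the 16 mitochondrial genes. SARS, which charges serine tRNA, was highest in the cytosolic set at a mean of 80.9 FPKM, and CARS, the cysteine enzyme, was lowest at 10.5 FPKM. The exon length used was 3836 bases for SARS and 10037 bases for CARS. In the mitochondrial set IARS2, the isoleucine enzyme, stood alone at 68.4 FPKM, and the next gene, YARS2, was at 15.97 FPKM. IARS2 made up 36.3% to 39.8% of the summed FPKM of the mitochondrial set in each library. SARS2, the mitochondrial serine enzyme, was listed at 0.125 to 0.459 FPKM from 7 to 26 fragments and was not tested. When its longest transcript is cut into overlapping words of 50 bases, 86.9% are shared with other genes, mostly the overlapping AC011455.2 on the same strand, so its value may be split between annotations and no fold is given.

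**Figure D1:**
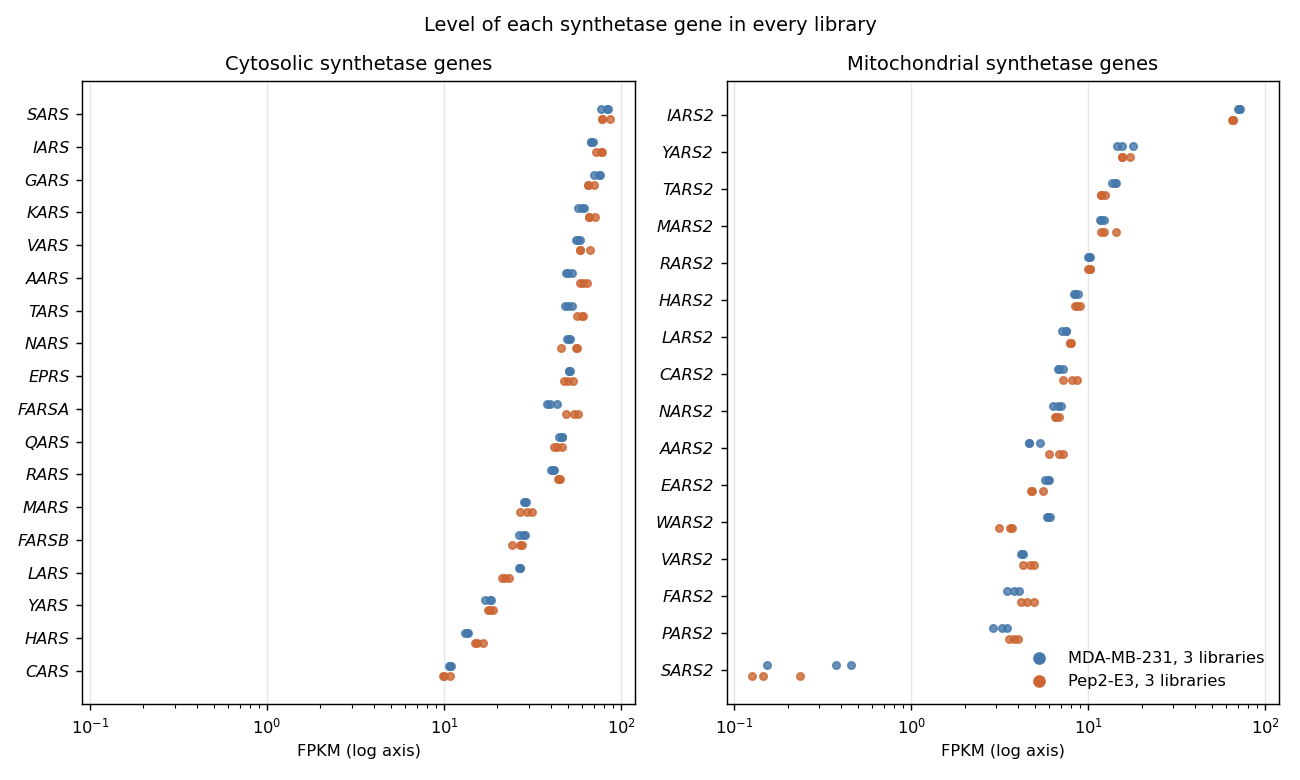
Level of 18 of the 19 cytosolic (left) and of the 16 mitochondrial (right) synthetase genes, in FPKM on a log axis, with 1 point per library (blue, 3 MDA-MB-231; orange, 3 Pep2-E3) and genes ordered by mean. The cytosolic genes lie between 10.5 and 80.9 FPKM on average, IARS2 stands above the other mitochondrial genes, and within a gene the colours lie close together.

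The 19 cytosolic genes summed to 833.2, 803.4 and 831.4 FPKM in parental replicates 1, 2 and 3 and to 893.7, 851.4 and 850.4 FPKM in Pep2-E3 replicates 1, 2 and 3. All 3 Pep2-E3 sums lay above the parental ones, the largest in replicate 1, at the positive end of the GC trend. The 16 mitochondrial genes summed to 184.5, 179.5 and 178.3 FPKM in the parental libraries and to 176.9, 179.2 and 171.7 FPKM in Pep2-E3, and these ranges overlapped. Of these genes, 16 of 19 cytosolic and 10 of 16 mitochondrial had the larger standard deviation (SD) in Pep2-E3. Spread was wider in Pep2-E3 over all tested genes too. The SD of the deviations from the group mean, in log2(FPKM + 1), was 0.129 to 0.135 in parental and 0.146 to 0.203 in Pep2-E3 libraries.

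Between parental and Pep2-E3 cells, 6 of the 19 cytosolic synthetase genes rose, 1 fell and 12 did not pass the test. The risers were FARSA, AARS, TARS, HARS, KARS and IARS, which charge phenylalanine, alanine, threonine, histidine, lysine and isoleucine tRNAs, and the gene that fell was LARS, the leucine enzyme. The changes were small, from a ratio of mean FPKM of 1.12 for IARS to 1.32 for FARSA. The test was limma on log2(FPKM + 1) across 14235 genes, with Benjamini-Hochberg adjustment over all of them at 0.05. On the same rule 30.8% of all tested genes changed, 14.6% higher and 16.2% lower, against 36.8% of the cytosolic members. The share of cytosolic genes that changed is therefore close to that of all genes. Their median log2 fold change was 0.03, against -0.02 for all tested genes and quartiles of all genes at -0.22 and 0.16. Leaving out parental replicate 1, 2 or 3 reduced the number that rose to 3, 2 and 2, leaving out Pep2-E3 replicate 3 reduced it to 3, and leaving out Pep2-E3 replicate 1 gave 5 higher and 2 lower.

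**Figure D2:**
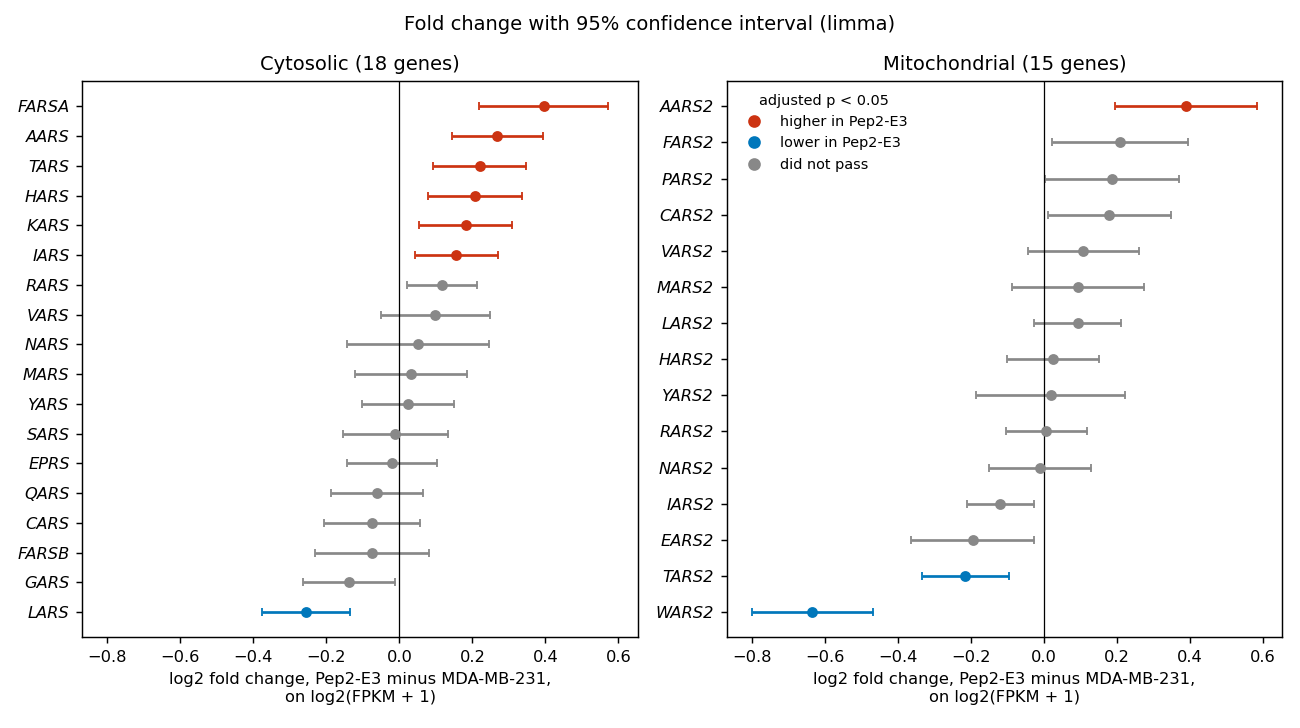
Difference in log2(FPKM + 1), Pep2-E3 minus MDA-MB-231, for 18 cytosolic and 15 mitochondrial synthetase genes, with its 95% confidence interval from limma; red passed upward, blue passed downward and grey did not pass at adjusted p under 0.05. The cytosolic genes span -0.26 (LARS) to 0.40 (FARSA) and the mitochondrial genes -0.63 (WARS2) to 0.39 (AARS2).

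FARSA encodes the catalytic alpha subunit of the cytosolic phenylalanine enzyme, which works as a complex with the beta subunit encoded by FARSB. The FARSA level was 38.2, 39.6 and 43.1 FPKM in parental replicates 1, 2 and 3 and 57.0, 54.5 and 48.6 FPKM in Pep2-E3. All Pep2-E3 libraries lay above all parental ones, with a log2 fold change of 0.40 ± 0.07 (standard error, SE) and a limma adjusted p of 0.00941. FARSB was at 28.6, 26.3 and 27.8 FPKM in parental and 24.0, 27.6 and 26.8 FPKM in Pep2-E3 libraries, which overlapped (log2 fold change -0.08 ± 0.07, limma adjusted p = 0.419). The ratio of the subunits' levels, FARSA over FARSB, was 1.46 in parental and 2.04 in Pep2-E3 cells (geometric means). This log2 ratio was 0.418, 0.590 and 0.633 in parental replicates 1, 2 and 3 and 1.245, 0.979 and 0.862 in Pep2-E3. The difference of 0.48 had an exact two-sided permutation p of 0.1, which is the smallest that 3 against 3 libraries allow. GC content is 60.3% for FARSA and 41.6% for FARSB. After the GC and length correction the log2 fold changes were 0.34 and -0.04, and what part GC content has in the ratio was not tested. The pair was chosen after its values were seen.

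AARS, whose enzyme charges and proofreads alanine tRNA, was at 52.5, 49 and 50 FPKM in parental and 64.0, 60.7 and 58.3 FPKM in Pep2-E3 libraries, with no overlap (0.27 ± 0.05, limma adjusted p = 0.0108). FARSA and AARS were the cytosolic risers whose call held under all 17 alternative settings, with adjusted p of 0.00286 to 0.0420 and 0.00416 to 0.0488. The threonine enzyme gene TARS was at 53.0, 48.5 and 50.2 FPKM in parental and 60.8, 56.3 and 60.0 FPKM in Pep2-E3 libraries (0.22 ± 0.05, limma adjusted p = 0.0228). Both groups of TARS were apart, but the call was lost on leaving out parental replicate 2 (adjusted p = 0.0880), parental replicate 3 (0.0749) or Pep2-E3 replicate 3 (0.0521).

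HARS, the histidine enzyme gene, was at 13.6, 13.4 and 13.1 FPKM in parental and 16.5, 15.4 and 14.9 FPKM in Pep2-E3 libraries (0.21 ± 0.05, limma adjusted p = 0.0285). Its call was lost when MDA-MB-231 replicate 1, 2 or 3 was left out (adjusted p = 0.0812, 0.0899 and 0.0965) and without Pep2-E3 replicate 2 (0.0678). KARS makes both the cytosolic and the mitochondrial lysine enzyme by alternative splicing, and its level was 61.4, 56.8 and 60.1 FPKM in parental and 71.2, 65.5 and 66.0 FPKM in Pep2-E3 libraries (0.18 ± 0.05, limma adjusted p = 0.0424). Although the groups did not overlap, leaving out any 1 of the 6 libraries ended the KARS call, with adjusted p from 0.0525 without Pep2-E3 replicate 1 to 0.143 without MDA-MB-231 replicate 2, as did upper-quartile scaling (0.0649) and no filter on low values (0.0768). IARS, the isoleucine enzyme of the multi-synthetase complex, was at 69.2, 67.1 and 67.6 FPKM in parental and 78.3, 71.9 and 77.3 FPKM in Pep2-E3 libraries (0.16 ± 0.05, limma adjusted p = 0.0482). Its call was lost without any 1 of the libraries other than Pep2-E3 replicate 2, with adjusted p from 0.0642 without Pep2-E3 replicate 1 to 0.146 without MDA-MB-231 replicate 2, and with upper-quartile scaling (0.0666) or no filter on low values (0.0776).

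LARS encodes the leucine enzyme, also described as a leucine sensor for the growth kinase mTORC1. Its level was 26.7, 26.5 and 26.7 FPKM in the parental libraries and 22.1, 21.1 and 23.3 FPKM in Pep2-E3. Every Pep2-E3 value lay below every parental value, a log2 fold change of -0.26 ± 0.05 with a limma adjusted p of 0.0113. LARS has a GC content of 41.5%, and after the correction for GC content and exon length its change was -0.15 with adjusted p = 0.0692. The median log2 fold change of its 40 nearest tested neighbours on chromosome 5 (20 on each side) was -0.20. That was the lowest among the 34 synthetase genes with such a value, whose neighbour medians ran up to 0.16 (AARS). AARS2, a mitochondrial gene described below, had a neighbour median of 0.14, and FARSA had -0.05. What part chromosomal position has in the changes of synthetase genes was not tested.

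Among the 12 cytosolic genes that did not pass, log2 fold changes ran from -0.14 (GARS) to 0.12 (RARS), and the 95% intervals together spanned -0.26 to 0.25. A larger change than that in any 1 of them was outside its interval. GARS, which serves the cytosol and mitochondria with glycine enzyme from 1 gene, was at 75.2, 70.0 and 75.5 FPKM in parental and 70.1, 64.9 and 65.3 FPKM in Pep2-E3 libraries (-0.14 ± 0.05, limma adjusted p = 0.0921). The GARS ranges overlapped narrowly, and the gene passed after the GC and length correction (adjusted p = 0.0188) and without Pep2-E3 replicate 1 (0.0326). NARS, the asparagine enzyme gene, was at 49.5 to 51.2 FPKM in parental libraries and at 45.7, 56.3 and 55.3 FPKM in Pep2-E3 replicates 1, 2 and 3. The single low NARS value came from Pep2-E3 replicate 1, and without that library NARS passed (log2 fold change 0.15, limma adjusted p = 0.0275). NARS passed under none of the other alternatives, the GC and length correction among them. RARS, the arginine enzyme gene, was higher in all Pep2-E3 libraries (44.2 to 44.9 against 40.3 to 41.8 FPKM) with a limma adjusted p of 0.0667. A further 8, VARS, CARS, QARS, FARSB, MARS, YARS, EPRS and SARS, had overlapping groups and adjusted p from 0.276 to 0.908.

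In all, 7 cytosolic genes had all Pep2-E3 values above the parental values and 2 had all below, beside 22.8% and 26% of all tested genes (48.8% in either direction). By structural class, the synthetases fall into 2 unrelated families with different catalytic folds. Of the 10 cytosolic class II genes 5 rose and 0 fell (FARSA, AARS, TARS, HARS and KARS), and of the 9 class I genes 1 rose and 1 fell (IARS and LARS), beside 14.6% higher and 16.2% lower among all tested genes. The difference between the classes was not tested. Of the 6 genes with the TGATGCAA octamer in the promoter sequences above, AARS, TARS and IARS rose, none fell, and the median log2 fold change was 0.10. Of the 9 genes whose window lacks a match, 3 rose (FARSA, HARS and KARS), none fell, and the median was -0.01. LARS, the cytosolic gene that fell, has no window, so no fall could be counted in either group. Both counts are descriptions of few genes.

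Of the multi-synthetase complex, 3 of 11 genes rose, 1 fell and 7 did not pass, a share called of 36.4% that is near the 30.8% of all tested genes. AIMP2, the scaffold protein at the core of the complex, changed most, from 14.1, 14.9 and 16.1 FPKM in parental to 23.0, 21.8 and 20 FPKM in Pep2-E3 libraries, a 1.44-fold rise. The groups were clearly apart (log2 fold change 0.49 ± 0.07, limma adjusted p = 0.00383), and the call held under all 17 alternatives. Of the exon bases of AIMP2, 28.9% overlap genes on the opposite strand, mostly EIF2AK1, and whether the reads mark strand was not tested. EIF2AK1 itself was at 28.4 FPKM in parental and 25.9 FPKM in Pep2-E3 cells on average (limma adjusted p = 0.0599).

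The other scaffold genes did not pass. AIMP1 was at 18.6, 19.5 and 18.3 FPKM in parental and 14.5, 20.1 and 18.4 FPKM in Pep2-E3 libraries (limma adjusted p = 0.555). EEF1E1 was at 3.19, 3.70 and 3.41 FPKM in parental and 1.38, 3.60 and 4.51 FPKM in Pep2-E3 libraries (limma adjusted p = 0.677). In both genes Pep2-E3 replicate 1 was the lowest of all 6 libraries, and both have a GC content under that of every synthetase gene, 36.3% and 36.9%. For EEF1E1, 33.9% of the transcript words are shared with other genes, mostly its read-through with BLOC1S5. Besides AIMP2, the risers of the complex were KARS and IARS, and the gene that fell was LARS. EPRS, the largest member, which joins the glutamate and proline enzymes in a single protein, was at 47.7 to 53.3 FPKM in Pep2-E3 and 50.6 to 51.6 FPKM in parental libraries (adjusted p = 0.790). The count of risers was 1 without MDA-MB-231 replicate 1, 2 or 3, or Pep2-E3 replicate 1 or 3 (AIMP2 in each case), and 1 with upper-quartile scaling or no filter.

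Of the 15 mitochondrial synthetase genes tested, AARS2 rose, WARS2 and TARS2 fell and 12 did not pass, a share of 20% changed beside 30.8% of all tested genes. The median log2 fold change was 0.03. WARS2, the mitochondrial tryptophan enzyme gene, had the largest change of all 34 tested synthetase genes. It was at 5.85, 5.93 and 6.06 FPKM in parental and 3.12, 3.71 and 3.62 FPKM in Pep2-E3 libraries, a 1.71-fold fall. The groups were far apart (log2 fold change -0.63 ± 0.07, limma adjusted p = 0.00156), and adjusted p was 0.000264 to 0.0124 over the 17 alternatives. The 40 nearest tested neighbours of WARS2 on chromosome 1 had a median log2 fold change of 0.09.

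AARS2, the mitochondrial alanine enzyme gene, was at 4.63, 5.30 and 4.62 FPKM in parental and 6.81, 7.19 and 6.02 FPKM in Pep2-E3 libraries. All Pep2-E3 values were above all parental values, 1.38-fold on the means (0.39 ± 0.08, limma adjusted p = 0.0134), and adjusted p was 0.0538 and 0.0515 when parental replicate 1 or 3 was left out. TARS2, the threonine enzyme gene, was at 14.2, 14.3 and 13.6 FPKM in parental and 12.4, 11.7 and 11.7 FPKM in Pep2-E3 libraries (-0.21 ± 0.05, limma adjusted p = 0.0197). The groups of TARS2 did not overlap, and its call was lost without MDA-MB-231 replicate 1 (adjusted p = 0.0807), MDA-MB-231 replicate 2 (0.0815) or Pep2-E3 replicate 2 (0.0656), and with upper-quartile scaling (0.103).

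The 12 mitochondrial genes that did not pass had log2 fold changes from -0.19 (EARS2) to 0.21 (FARS2), within 95% intervals that together spanned -0.36 to 0.40. In 7 of them the groups did not overlap, as in 48.8% of all tested genes, called or not. IARS2 was lower in all Pep2-E3 libraries (64.98 to 65.9 against 70.2 to 72.2 FPKM) with a limma adjusted p of 0.0557, and it passed without Pep2-E3 replicate 1 (0.0430). EARS2, the glutamate enzyme that also feeds mitochondrial glutamine tRNA, was lower in all of them (4.71 to 5.54 against 5.67 to 5.997 FPKM, adjusted p = 0.0790) and passed without Pep2-E3 replicate 1 (0.0137) and after the GC and length correction (0.0215). CARS2, the cysteine enzyme gene, was at 6.72, 7.15 and 6.82 FPKM in parental and 8.58, 8.08 and 7.22 FPKM in Pep2-E3 libraries (adjusted p = 0.0973), and it passed after that correction (0.0252) and without Pep2-E3 replicate 3 (0.0348). FARS2, PARS2, LARS2 and VARS2 were also higher in all Pep2-E3 libraries, with limma adjusted p of 0.0849, 0.109, 0.199 and 0.238. For VARS2 30.1% of its transcript's words occur in other genes, mostly the overlapping GTF2H4. MARS2, HARS2, YARS2, RARS2 and NARS2 had overlapping groups and adjusted p from 0.378 to 0.917. Without MDA-MB-231 replicate 1 or 3 no mitochondrial gene was called higher, 1 was called lower without MDA-MB-231 replicate 1 or 2 or Pep2-E3 replicate 2, and 4 were called lower without Pep2-E3 replicate 1.

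The balance between the cytosolic and mitochondrial genes of the same amino acid was compared for 15 pairs. For each pair the ratio of FPKM, cytosolic over mitochondrial, was taken in each library. In 5 pairs all Pep2-E3 ratios lay above the parental ones, in 3 pairs all lay below and in 7 they overlapped. Among all tested genes taken singly, 48.8% did not overlap, and no such share was computed for ratios of other gene pairs. EPRS enters both the glutamate pair (above) and the proline pair (below), so the pairs are not independent. The exact two-sided permutation p was 0.1 for each of these 8 pairs, the smallest possible with 3 against 3, so none can pass 0.05 and none would after adjustment over the 15.

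Among the 5 pairs with all Pep2-E3 ratios above, threonine had the largest difference, and TARS rose while TARS2 fell. The TARS over TARS2 ratio was 3.60 in parental and 4.93 in Pep2-E3 cells (geometric means of 3 libraries), a log2 difference of 0.45. Leucine went the other way, from 3.63 to 2.81 for LARS over LARS2, a log2 difference of -0.37. For isoleucine both genes were at nearly the same level in parental cells, with an IARS over IARS2 ratio of 0.954, and IARS was ahead in Pep2-E3 at 1.16. Alanine differed from these pairs, as AARS and AARS2 both rose and their ratio (10.4 in parental, 9.16 in Pep2-E3) overlapped between groups.

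**Figure D3:**
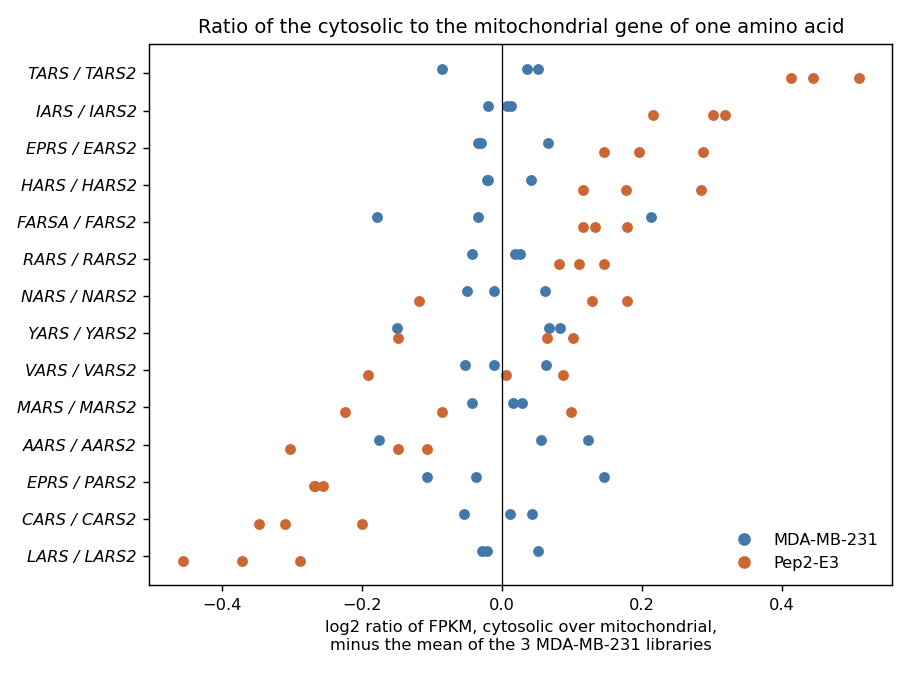
Log2 ratio of FPKM of the cytosolic over the mitochondrial gene for 14 amino acid pairs (SARS over SARS2 is left out, as SARS2 had few fragments), each shown relative to the mean of the 3 MDA-MB-231 libraries, with 1 point per library. The Pep2-E3 points lie to the right for TARS over TARS2 and to the left for LARS over LARS2, and the groups overlap for pairs such as AARS over AARS2.

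Histidine gives a pair that shares a promoter region. HARS and HARS2 lie head to head on chromosome 5 with RefSeq starts 85 bases apart. The stretch between them, shown because the genes are read outward from it, lies at chr5:140691360-140691465 (GRCh38.p14, plus strand), and capitals mark the first base of HARS, read to the left, and of HARS2, read to the right.
HARS-HARS2: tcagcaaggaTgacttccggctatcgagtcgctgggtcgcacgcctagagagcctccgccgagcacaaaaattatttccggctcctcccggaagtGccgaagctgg
HARS rose, whereas HARS2 was at 8.76, 8.29 and 8.46 FPKM in parental and 8.62, 9.01 and 8.39 FPKM in Pep2-E3 libraries, with overlapping groups (0.03 ± 0.05, limma adjusted p = 0.736). The HARS over HARS2 ratio was higher in all Pep2-E3 libraries, 1.57 in parental and 1.80 in Pep2-E3 cells (exact permutation p = 0.1). The exons of the genes overlap on opposite strands in 8.38% of HARS and 11.7% of HARS2 bases, and these reads cannot be told apart without strand. Another close head-to-head pair is FARS2 and LYRM4, an iron-sulfur cluster assembly gene, with starts 57 bases apart. LYRM4 rose from a mean of 3.48 to 4.57 FPKM (0.31 ± 0.07, limma adjusted p = 0.0141), beside FARS2 at 0.21 ± 0.08, which did not pass. In other such pairs the neighbour did not pass. TERF2IP, 108 bases from the riser KARS, was at 0.03 ± 0.04 (limma adjusted p = 0.653). PMS2, 166 bases from the riser AIMP2, was at 0.15 ± 0.09 (0.221). For RARS2 and ORC3, 148 bases apart, neither passed (0.01 ± 0.05 and -0.19 ± 0.06).

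In GRCh38 coordinates of GENCODE release 29, the synthetase genes that changed lie on 6 chromosomes. FARSA (ENSG00000179115) lies on chromosome 19, 12922479 to 12934037, AARS (ENSG00000090861) on chromosome 16, 70252295 to 70289543 and KARS (ENSG00000065427) on the same chromosome, 75627474 to 75648643. TARS (ENSG00000113407), HARS (ENSG00000170445) and LARS (ENSG00000133706) lie on chromosome 5, at 33440696 to 33469539, 140673904 to 140691862 and 146113038 to 146182660. IARS (ENSG00000196305) lies on chromosome 9, 92210207 to 92293756. WARS2 (ENSG00000116874) and TARS2 (ENSG00000143374) lie on chromosome 1, 119031216 to 119140671 and 150487364 to 150507609, and AARS2 (ENSG00000124608) on chromosome 6, 44299654 to 44313326. HARS and LARS, on the same arm of chromosome 5, moved in opposite directions.

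The ATF4 arm of the amino acid response went both ways. Of 17 tested ATF4 response genes 4 rose and 4 fell, and the median log2 fold change was 0.09. For this list and those after it, the shares to read the counts against are 14.6% higher and 16.2% lower among all tested genes, with a median of -0.02. ATF4 itself rose from 90.9, 82.2 and 89.5 FPKM in parental to 143, 137 and 124 FPKM in Pep2-E3 libraries, 1.54-fold (limma adjusted p = 0.00147). ATF5, a related stress factor, PPP1R15A, the phosphatase subunit that reverses eIF2 phosphorylation, and the stress cytokine GDF15 had log2 fold changes of 0.96 ± 0.12, 0.59 ± 0.07 and 0.57 ± 0.11 (SE) and all rose. The lipoprotein receptor VLDLR and the mitochondrial enzyme PCK2 fell, with log2 fold changes of -0.35 ± 0.06 and -0.24 ± 0.05. ATF3 (-0.31 ± 0.07, limma adjusted p = 0.0144) and DDIT4 (-0.25 ± 0.07, 0.0290) fell too. Their calls were lost under 2 and 8 of the 17 alternatives. DDIT3, TRIB3, CHAC1 and SESN2, commonly used readouts of the response, did not pass (limma adjusted p from 0.261 to 0.497). Upstream of ATF4, 2 of 12 genes of the eIF2 kinase list rose and 3 fell (median -0.11). EIF2B2 and EIF2B1, subunits of the factor that recycles eIF2, moved apart, at 0.44 ± 0.05 (limma adjusted p = 0.00196) and -0.26 ± 0.05 (0.00696) on the log2 scale, and EIF2AK3, the eIF2 kinase PERK, fell (-0.34 ± 0.07, 0.0111). EIF2S1, the eIF2 alpha subunit, rose 1.46-fold and GCN1, the partner that activates GCN2, fell 1.42-fold from 49.1 to 34.6 FPKM, while EIF2AK4, which encodes GCN2, was at 11.99 FPKM in parental and 10.8 FPKM in Pep2-E3 cells (adjusted p = 0.0669) and passed without Pep2-E3 replicate 1 (0.0414). Both risers, EIF2S1 and EIF2B2, lie on chromosome 14, and GCN1 and EIF2B1 lie on chromosome 12. What part chromosomal position has in the changes of this list and those after it was not tested.

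Amino acid supply was read from lists of transporters and synthesis enzymes, and the difference between the lists was not tested. Of 15 transporters 5 rose and 1 fell (median log2 fold change 0.08, 40% called), and of 19 tested synthesis genes 1 rose and 5 fell (median -0.15, 31.6% called), both near the 30.8% of all tested genes. Each of the 5 falls among synthesis genes was lost under at least 2 of the 17 alternatives. SLC7A5 and SLC3A2, which form the leucine and large neutral amino acid exchanger, rose from 103, 98.2 and 99.98 to 172, 159.55 and 143 FPKM and from 53.1, 52.3 and 53.2 to 77.3, 71.4 and 64.0 FPKM. All Pep2-E3 values of both genes were above the parental ones (limma adjusted p = 0.00152 and 0.00666). SLC36A1 and SLC43A2, also amino acid carriers, rose by 0.53 ± 0.06 and 0.55 ± 0.09 on the log2 scale. PHGDH, the first enzyme of serine synthesis, rose from a mean of 2.31 to 4.13 FPKM. ASNS, asparagine synthetase and a well known ATF4 target, was low and fell from 0.890, 1.07 and 0.819 FPKM to 0.249, 0.480 and 0.497 FPKM (limma adjusted p = 0.0230), a call lost without MDA-MB-231 replicate 1 (0.0658) or MDA-MB-231 replicate 2 (0.0865). The ASNS promoter window also holds the searched motif. Of the 20 windows searched among genes of the related lists 4 hold it, those of SLC3A2 and CHAC1 among them.

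**Figure D4:**
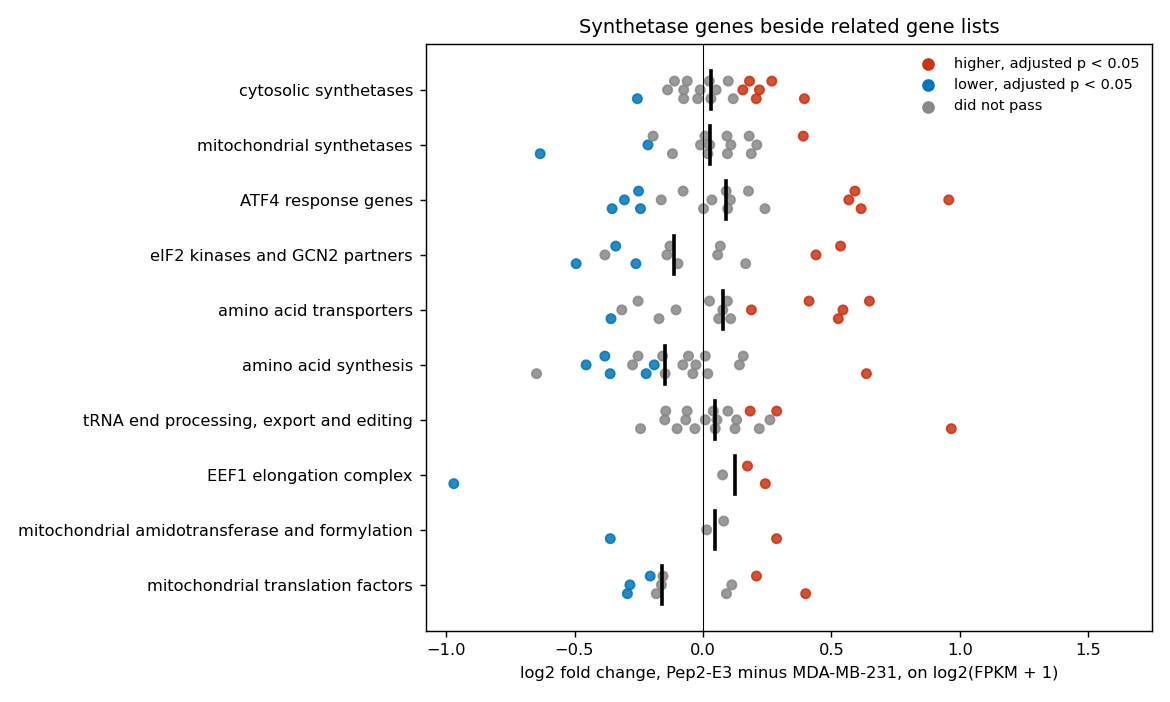
Difference in log2(FPKM + 1), Pep2-E3 minus MDA-MB-231, of each tested gene in the synthetase sets and 8 related lists, with 1 point per gene coloured by the limma call and a black bar at each list's median. The cytosolic synthetase points lie between -0.26 and 0.40, while single genes of other lists lie further out, such as ATF5 at 0.96 and EEF1A2 at -0.97.

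Partners of the synthetases in tRNA handling and elongation were described by the same counts. Of 19 tested tRNA processing, export and editing genes 3 rose and none fell, with a median of 0.05. POP1, a protein of the tRNA-trimming enzyme RNase P, rose 2.2-fold and its partner RPP30 rose by 0.29 ± 0.05, while XPOT, the tRNA exporter, was at 32.7 to 34.4 FPKM in parental and 30.5 to 32.7 FPKM in Pep2-E3 libraries (adjusted p = 0.165). Of the 4 tested elongation factor genes 2 rose and 1 fell. EEF1A2, a form of the factor that carries charged tRNA to the ribosome, fell 2.01-fold (limma adjusted p = 0.000260). Of the mitochondrial partners, 2 of 10 translation factors rose and 3 fell, and of the 4 amidotransferase and formylation genes 1 rose and 1 fell. Each of these 7 calls was lost when parental replicate 1, parental replicate 2 or Pep2-E3 replicate 2 was left out. In all, 18 of the 38 called genes of the related lists kept their call under each alternative run. Apart from ASNS, ATF3 and DDIT4, the genes of these lists named above as having risen or fallen are among the 18, except VLDLR. VLDLR had a limma adjusted p of 0.0504 with the replicate block and GC correction together.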

How the data were processed

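The authors deposited 1 table per library with Ensembl gene identifiers and FPKM values, per the file headers. Per the submitters' processing notes the tools were Bowtie2 (2.2.3), HTSeq (0.6.0) and HISAT2 (2) and the build was mm8, of mouse, whereas all 30099 identifiers are human and occur in GENCODE release 29, used here for names, coordinates and exon lengths. Per the labels' protocols the kit was a NEBNext Ultra kit. FPKM times exon length gave whole fragments within 0.01 for 100% of values, which served for depth and for limma-voom.

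Groups were compared by limma-trend on log2(FPKM + 1), run with limma 3.58.1 in R 4.3.3, since the unit is not counts. It covered the 14235 genes whose mean over the 6 libraries reached 0.5 FPKM, Benjamini-Hochberg adjusted at 0.05. The scale understates changes of low genes. Folds are ratios of mean FPKM. The 17 alternatives changed scaling, filter, pseudocount or model, used the replicate number as a block, corrected for GC content and exon length (splines with 5 degrees of freedom), or left out 1 library.

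Members and lists were chosen with earlier results of these data known. Values in every library are given for the members that passed, for GARS and KARS and for the scaffold genes. For each related list up to 4 genes per direction were chosen by smallest p, with ATF4, ASNS, XPOT and EIF2AK4, and most of these are given by fold change or mean. Of the genes chosen by p, those named kept their call under all alternatives, apart from VLDLR, ATF3 and DDIT4. Other genes named were chosen after their values were seen. Depth was 17154511 to 18206694 fragments per library. The values of 1 cytosolic member are not reported here; it is counted in the totals of its set.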

Additional observations from a re-analysis of the deposited data

How the results depend on the processing

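No called synthetase gene changed direction under the 17 alternatives, and 3 of the 10 called, FARSA, AARS and WARS2, kept their call under each. The number of cytosolic genes called higher was 6 and became 3 with the replicate block and 2 to 5 on leaving out 1 library, and the number called lower was 1 to 2. Mitochondrial genes called higher numbered 0 to 2 and lower 1 to 4 on leaving out 1 library. There were 2 higher after the GC and length correction, and 1 lower with upper-quartile scaling or the replicate block. In the multi-synthetase complex 1 gene was called higher with upper-quartile scaling, no filter or the replicate block and 1 to 2 on leaving out 1 library. There, 0 were called lower after the GC and length correction, alone or with the replicate block. The median log2 fold change of cytosolic genes was 0.0755 with upper-quartile scaling, and the mitochondrial median was 0.00165 to 0.1 on leaving out 1 library. Over all genes the calls numbered 2474 to 4857 on leaving out 1 library (1185 to 2302 higher, 1289 to 2555 lower), and 1364 were higher with the replicate block. Same-numbered deviations correlated at -0.042, 0.0383 and -0.0609, and differently numbered ones at -0.0519 to 0.0873. With 3 libraries a group and a GC trend among the Pep2-E3 libraries, these values cannot decide whether the numbers mark pairs. Under the block HARS, KARS, IARS and TARS2 lost their calls (limma adjusted p = 0.07, 0.0752, 0.108 and 0.0644), and so did ASNS (0.0505). The causes of these shifts were not tested. Depth limits SARS2, with 7 to 26 fragments. With 3 libraries a group, the genes that did not pass are limited only to the intervals given.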
